A study of Homo sapiens with 4 samples.

Results

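Antisense long noncoding RNAs named after a gene on the other DNA strand were described in SKNMC cells, an established human Ewing sarcoma line. Members were taken by symbol: a gene name followed by -AS and a number, at least 200 reads summed over the 4 libraries, and OIP5-AS1 left out. Of 60617 gene entries in the table, 1821 carried such a symbol and 247 met the read limit. Of the others, 528 had no read, 1045 had fewer than 200 reads, and OIP5-AS1 was set aside. The groups were cells treated with CBL0137 at 1 µM for 24 h (n = 2) and cells given its vehicle DMSO (n = 2), and no genotype or further agent is named for either group. CBL0137 belongs to the curaxins, DNA-binding small molecules under which the histone chaperone FACT becomes trapped on chromatin. The labels do not tell whether the libraries of a group are separate cultures, and the spread behind the p-values may therefore be technical.

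An antisense RNA is transcribed from the strand opposite to another gene, called its sense partner here. Many start close to the partner's promoter and run away from it or across it, and others lie inside the partner or overlap its end. Such RNAs are often spliced, are mostly kept in the nucleus, and some are known to raise or lower the expression of the gene they oppose. Their levels are usually well below those of protein-coding genes.

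The libraries held 20767817 and 21061892 reads in genes with CBL0137 and 20086664 and 19625517 with DMSO, and the members took 0.336% and 0.333% of them with CBL0137 and 0.290% and 0.288% with DMSO. Of all counted reads, 10.3% and 10.2% with CBL0137 and 8.52% and 8.82% with DMSO fell in no annotated gene. All 10 Ewing sarcoma markers examined had between 30.2 and 1157 CPM (read counts scaled to a common library total, with TMM factors) in every library. NKX2-2, FLI1 and LIPI were at 37.4 to 72.5 CPM with CBL0137 and at 30.2 to 70.3 CPM with DMSO, whereas CCND1, PRKCB, BCL11B, CD99 and NR0B1 were lower with CBL0137 (62.7 to 573 CPM) than with DMSO (106 to 1157 CPM), CCND1 for example at 526 and 573 CPM with CBL0137 and 1157 and 1142 CPM with DMSO. Among markers of other cell types, CD3E, MYOD1 and DES were at 0 to 0.211 CPM. COL1A1 was at 470 and 441 CPM with CBL0137 and at 127 and 119 CPM with DMSO, EPCAM and KRT8 were likewise higher with CBL0137 (5.95 to 8.07 CPM, against 2.25 to 3.11 CPM with DMSO), and PTPRC was at 107 and 123 CPM with CBL0137, against 162 CPM in both DMSO libraries. COL1A2, DCN and HAND2 were at 14.4 to 651 CPM over all libraries. The part of these markers in the results was not tested.

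The sources used here do not state whether reads were counted by strand, and the data bear on it directly. Of 522 genes whose exons lay wholly under exons of genes on the other strand, 6.13% had a read, against 54.6% of 35186 genes that shared no exon base with another gene and 11.5% of 537 genes wholly under exons of the same strand. In the deposited FPKM values, 55.9% of the first set, 59.2% of the unshared set and 83.4% of the same-strand set were above 0. Genes wholly under opposite-strand exons thus had a read no more often than genes that strand cannot separate. Among the members, 203 of 247 had at least 1 exon base inside an exon of a gene on the other strand, with a median of 6.18% of exon bases, and a median of 29.8% of exon bases lay in introns of such genes. Without strand, reads from an unspliced sense transcript inside an antisense exon cannot be told apart from antisense reads. This applies to the member counts that follow.

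Promoter windows show how closely antisense and sense starts can lie. RefSeq windows (GRCh38.p14, 250 bases before to 50 bases after a gene's start) were matched by symbol to 155 members, and 88 pairs had a window for both genes. In 18 of these pairs the sense start fell within the antisense window, upstream of the antisense start and on the other strand. The 6 windows printed are those in which the antisense/sense ratio or both genes were called, as described further on. Each is written 5′ to 3′ on the antisense strand, and the capitals mark the bases from the sense start through the antisense start.
SBNO1-AS1 (chr12:123364698-123364997, plus strand): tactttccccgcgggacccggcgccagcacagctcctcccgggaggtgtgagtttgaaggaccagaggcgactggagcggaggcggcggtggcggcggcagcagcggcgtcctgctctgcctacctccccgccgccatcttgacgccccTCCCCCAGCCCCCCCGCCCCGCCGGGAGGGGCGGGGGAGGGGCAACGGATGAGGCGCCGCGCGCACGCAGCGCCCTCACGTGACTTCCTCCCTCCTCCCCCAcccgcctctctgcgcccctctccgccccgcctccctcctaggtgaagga
FOXD3-AS1 (chr1:63322409-63322708, minus strand): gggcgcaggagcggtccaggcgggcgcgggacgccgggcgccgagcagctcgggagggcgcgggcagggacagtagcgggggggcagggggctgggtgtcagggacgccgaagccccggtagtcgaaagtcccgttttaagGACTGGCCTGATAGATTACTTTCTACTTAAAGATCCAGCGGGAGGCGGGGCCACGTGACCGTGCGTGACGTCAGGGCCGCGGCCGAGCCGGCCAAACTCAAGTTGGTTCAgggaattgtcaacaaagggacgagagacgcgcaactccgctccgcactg
RTCA-AS1 (chr1:100266125-100266424, minus strand): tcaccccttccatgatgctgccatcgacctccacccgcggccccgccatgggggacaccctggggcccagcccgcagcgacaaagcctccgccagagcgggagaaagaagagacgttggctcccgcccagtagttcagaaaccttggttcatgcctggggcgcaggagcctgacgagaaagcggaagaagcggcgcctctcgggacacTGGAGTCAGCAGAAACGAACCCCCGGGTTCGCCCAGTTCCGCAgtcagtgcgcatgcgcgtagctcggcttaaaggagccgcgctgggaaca
TPT1-AS1 (chr13:45341095-45341394, plus strand): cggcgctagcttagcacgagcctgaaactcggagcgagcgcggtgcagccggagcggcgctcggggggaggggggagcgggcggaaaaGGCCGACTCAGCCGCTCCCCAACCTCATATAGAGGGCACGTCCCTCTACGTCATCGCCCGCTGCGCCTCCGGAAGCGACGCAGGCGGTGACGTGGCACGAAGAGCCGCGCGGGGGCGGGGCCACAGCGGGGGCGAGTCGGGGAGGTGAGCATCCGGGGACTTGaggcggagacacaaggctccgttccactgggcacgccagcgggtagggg
TRIM52-AS1 (chr5:181260962-181261261, plus strand): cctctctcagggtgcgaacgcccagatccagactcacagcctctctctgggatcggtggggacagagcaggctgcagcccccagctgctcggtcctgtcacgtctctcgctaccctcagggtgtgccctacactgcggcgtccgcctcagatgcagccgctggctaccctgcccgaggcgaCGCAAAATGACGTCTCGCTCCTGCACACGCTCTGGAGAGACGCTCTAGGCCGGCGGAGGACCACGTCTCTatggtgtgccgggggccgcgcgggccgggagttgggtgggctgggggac
ZBED5-AS1 (chr11:10857967-10858266, plus strand): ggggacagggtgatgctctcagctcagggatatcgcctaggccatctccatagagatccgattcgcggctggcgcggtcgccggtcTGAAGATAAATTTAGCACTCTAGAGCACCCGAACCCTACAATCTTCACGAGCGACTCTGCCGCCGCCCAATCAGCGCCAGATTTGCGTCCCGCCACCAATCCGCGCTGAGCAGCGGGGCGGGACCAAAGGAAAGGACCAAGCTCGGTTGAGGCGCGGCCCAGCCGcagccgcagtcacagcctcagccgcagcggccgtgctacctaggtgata

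In these windows the starts lay 101 bases apart for SBNO1-AS1, 109 for FOXD3-AS1, 42 for RTCA-AS1, 162 for TPT1-AS1, 69 for TRIM52-AS1 and 164 for ZBED5-AS1. 3 short words were searched on both strands, and none contains another. GGGCGG, the GC box, was present in 101 of 155 member windows (65.2%) and in 44.95% of 35116 RefSeq windows. CCAAT was present in 51 of the 155 (32.9%), against 34.6% of all windows. GGAAGGAA, a pair of the repeats that EWSR1-FLI1 is known to bind, was present in 5 of the 155 (3.23%), against 3.67% of all windows. Of the 6 printed windows, 4 held GGGCGG, 1 held CCAAT (ZBED5-AS1) and 0 held GGAAGGAA. The median number of CG dinucleotides was 28 in the 18 shared windows, 25 in all member windows and 14 in all RefSeq windows. These matches are descriptions of the letters only.

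Antisense RNAs were more often higher than lower with CBL0137. Of the 247 members, 84 rose (34.0%), 26 fell (10.5%) and 137 were not called (edgeR quasi-likelihood test on counts, Benjamini-Hochberg adjusted p under 0.05 over 17374 tested genes and a fold above 1.5). The share of all tested genes called was 18.2% higher and 15.1% lower. Among tested genes with 200 reads or more it was 15.1% higher and 16.6% lower, and among those with 200 to 2000 reads, where most members lie, 24.0% higher and 18.3% lower. The median log2 fold change of the members was 0.26, against 0.01 over all tested genes and -0.04 over tested genes with 200 reads or more. It was 0.42 with library size as the only scaling, 0.058 over the 210 antisense genes with at least 100 reads in the DMSO libraries and 0.063 over the 14 members outside opposite-strand gene spans. All 247 members passed the filter on low counts. CPM of the groups did not overlap in 206 members (83.4%), against 79.9% of all tested genes. With library size as the only scaling, 100 members were higher and 18 lower, and with limma on log2(FPKM + 1), which understates changes of low genes, 50 were higher and 10 lower.

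The read limit itself bears on the count of higher calls. A gene that is high with CBL0137 can reach 200 reads through the CBL0137 libraries alone, and 42 members had fewer than 100 reads in the DMSO libraries together. Of those 42, 32 were called higher, a direction that their entry through the CBL0137 libraries favours. Among the 205 members with at least 100 DMSO reads, 52 rose (25.4%) and 26 fell (12.7%). These members still had to reach 200 reads in total, which can leave out genes that fell. Without that limit, 210 antisense genes had at least 100 DMSO reads, with 52 higher and 30 lower. Only 7 members had fewer than 100 reads in the CBL0137 libraries together, and 6 of them were called lower. At the limit, TEDC2-AS1, TFAP2A-AS1 and KIF9-AS1 stood just inside with 200, 200 and 202 reads and log2 fold changes of 1.72, 2.05 and 1.04. MEIS1-AS2, C21orf62-AS1 and MAP3K4-AS1 stood just outside with 198, 199 and 199 reads and log2 fold changes of -0.17, 0.22 and 2.04.

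**Figure D1:**
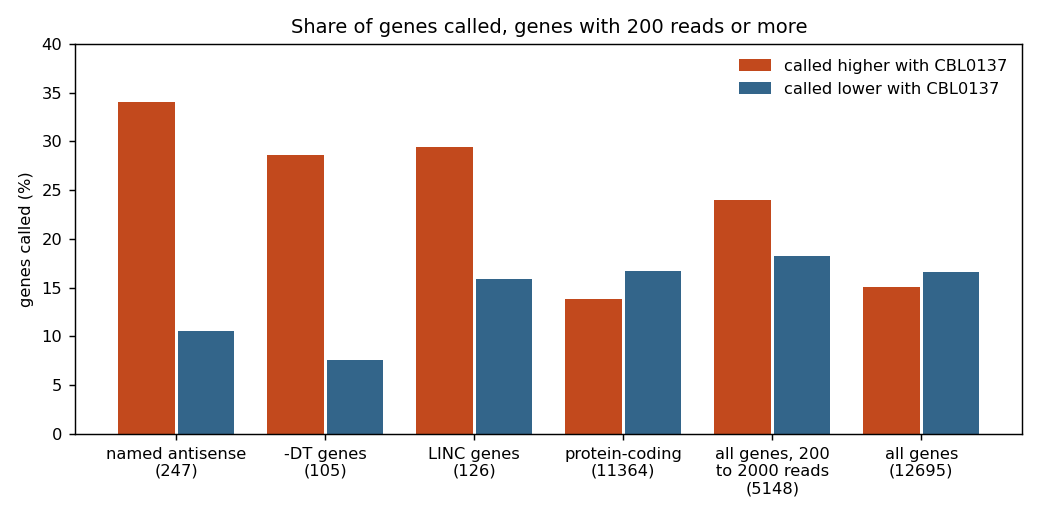
Share of genes called higher and lower with CBL0137 (y axis, percent of genes), all with 200 reads or more. Groups are named antisense genes, noncoding genes named -DT or LINC, protein-coding genes, tested genes with 200 to 2000 reads and all tested genes. The number of genes is under each pair of bars. Named antisense genes reached 34.0% higher and 10.5% lower, against 13.8% higher and 16.7% lower for protein-coding genes. Not drawn are protein-coding genes with 200 to 2000 reads (22.8% and 19.4%) and members with at least 100 DMSO reads (25.4% and 12.7%).

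Call shares of other families of noncoding genes and of protein-coding genes are set beside these. Of 105 genes with names ending in -DT, given to transcripts divergent from a neighbouring gene, 28.6% were called higher and 7.62% lower. Of 126 genes with LINC names, given to intergenic noncoding RNAs, 29.4% were called higher and 15.9% lower. Protein-coding genes with 200 to 2000 reads had 22.8% called higher and 19.4% lower. When members were ordered by reads, the 62 with the fewest reads had 24 higher and 5 lower, and the 62 with the most reads 13 higher and 10 lower. The difference between these families was not tested.

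The most strongly raised member was CD27-AS1 (ENSG00000215039, chromosome 12, 6548167 to 6560773 in GRCh37, minus strand), which lies opposite CD27, a gene for a lymphocyte costimulatory receptor. It had 215 and 162 reads with CBL0137, against 25 reads and 1 read with DMSO, or 9.79 and 7.32 CPM with CBL0137 and 1.32 and 0.0537 CPM with DMSO. All CBL0137 values lay above the DMSO values, and the DMSO libraries differed widely from each other. CD27-AS1 met the read limit through the CBL0137 libraries, which favours a higher call. Its log2 fold change was 3.61 (SE 0.34, edgeR adjusted p = 2.71e-12), with 7.15 when DMSO replicate 1 was left out and 2.67 when DMSO replicate 2 was left out, and DESeq2 did not call it at 3.63. CD27 itself had 28 and 27 reads with CBL0137, against 1 read and 0 reads with DMSO.

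Other large increases had more even replicates. FOXD3-AS1 (ENSG00000230798, chromosome 1, 63786549 to 63790112 in GRCh37, minus strand) averaged 12.9 ± 0.488 CPM with CBL0137 and 2.61 ± 0.196 CPM with DMSO (SD, n = 2 each). Its log2 fold change was 2.31 (SE 0.18, edgeR adjusted p = 5.29e-15). SBNO1-AS1, which starts beside the helicase-related gene SBNO1, had 5.46 and 4.16 CPM with CBL0137 and 1.11 and 0.752 CPM with DMSO (log2 fold change 2.36). HMGN3-AS1, beside the gene for a nucleosome-binding protein, had 7.6 and 6.86 CPM with CBL0137 and 1.43 and 1.56 CPM with DMSO (2.27). In all of these the CBL0137 libraries were several times above the DMSO libraries, with no overlap. FOXD3-AS1, SBNO1-AS1 and HMGN3-AS1 had 98, 35 and 56 reads in the DMSO libraries together. Their entry through the CBL0137 libraries therefore favours a higher call.

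CD63-AS1 had 6.46 and 6.96 CPM with CBL0137 and 1.64 and 1.29 CPM with DMSO (log2 fold change 2.19), opposite the gene for the endosomal tetraspanin CD63. TSHZ3-AS1, opposite a zinc finger transcription factor gene, had 11.4 and 13.5 CPM with CBL0137 and 2.96 and 2.58 CPM with DMSO (2.16). The sense partners of these genes were not called: the log2 fold change was 0.27 for CD63 and -0.17 for TSHZ3. PRPF31-AS1, inside the span of the splicing factor gene PRPF31, had 4.19 and 3.57 CPM with CBL0137 and 1.06 and 0.752 CPM with DMSO (2.09). Of its exon bases, 85.8% lay in introns of genes on the other strand. CD63-AS1 and PRPF31-AS1 had 55 and 34 reads in the DMSO libraries together, and TSHZ3-AS1 had 104. Entry through the CBL0137 libraries thus favours a higher call of CD63-AS1 and PRPF31-AS1 too.

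The most strongly lowered member was VLDLR-AS1 (ENSG00000236404, chromosome 9, 2421597 to 2622457 in GRCh37, minus strand), whose start overlaps that of VLDLR, a lipoprotein receptor gene. It had 1.05 and 1.85 CPM with CBL0137, against 13.7 and 13.8 CPM with DMSO. The groups were far apart (log2 fold change -3.24, SE 0.20, edgeR adjusted p = 1.18e-17). VLDLR had 12.9 and 15 CPM with CBL0137 and 44.2 and 41.6 CPM with DMSO, and fell by 1.62 on the log2 scale, so the antisense/sense ratio was lower by 1.598 (SE 0.26, limma adjusted p = 0.0302 over 545 pairs).

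SLC7A11-AS1 fell by 1.89 on the log2 scale, with 2.96 and 2.35 CPM with CBL0137 and 9.89 and 9.78 CPM with DMSO. Its partner SLC7A11, the cystine importer subunit, had 119 and 145 CPM with CBL0137 and 561 and 607 CPM with DMSO and fell by 2.15, and their ratio was not called. L3MBTL2-AS1, inside the span of a Polycomb-related gene, had 4.41 and 4.97 CPM with CBL0137 and 15.8 and 15.7 CPM with DMSO (log2 fold change -1.75), whereas L3MBTL2 had a log2 fold change of -0.02. ZBED3-AS1 had 2.87 and 2.17 CPM with CBL0137 and 7.56 and 9.13 CPM with DMSO (-1.73). RGMB-AS1 (-1.27), TMEM92-AS1 (-1.11), EPB41L4A-AS1 (-1.09) and FLRT2-AS1 (-1.09) completed the 8 largest decreases, each with both CBL0137 libraries below both DMSO libraries. TMEM92-AS1 was no longer called without DMSO replicate 1 (-0.78), and SLC7A11-AS1, RGMB-AS1, TMEM92-AS1 and FLRT2-AS1 were not called on log2(FPKM + 1), at -0.52, -0.54, -0.48 and -0.57.

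**Figure D2:**
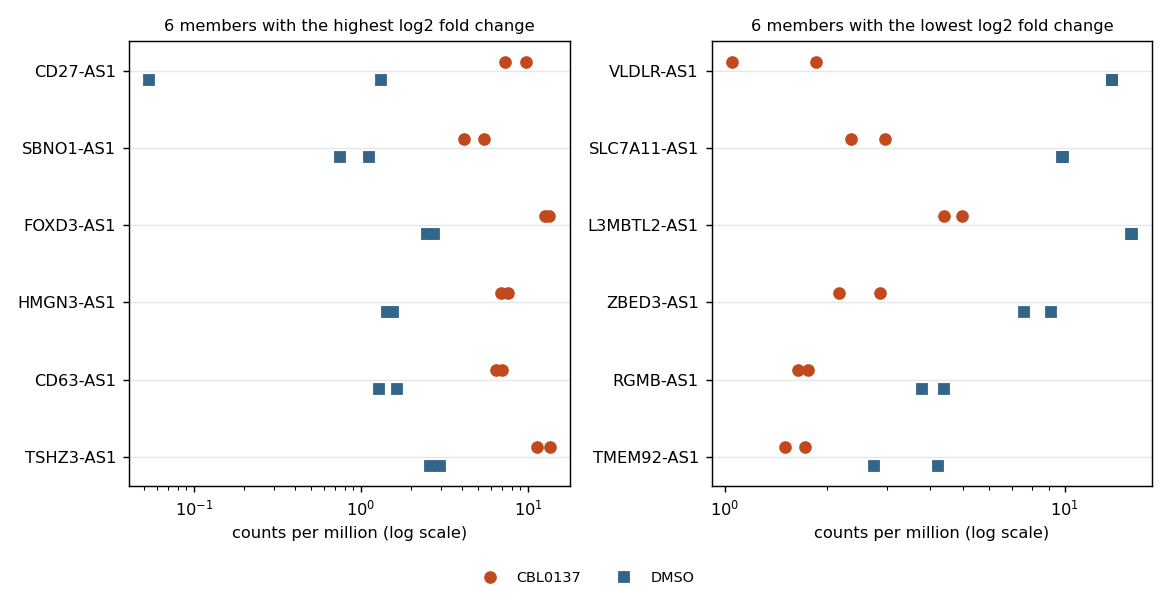
CPM (x axis, log scale) in each library for the 6 called members that rose most and the 6 that fell most on the log2 scale; each point is 1 library, CBL0137 as circles and DMSO as squares. VLDLR-AS1 stands at 1.05 and 1.85 CPM with CBL0137 and near 13.8 CPM with DMSO, and CD27-AS1 has DMSO libraries far apart, at 1.32 and 0.0537 CPM.

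Of the 6 members with the highest average CPM, 1 rose, 2 fell and 3 were not called. FEZF1-AS1 (ENSG00000230316, chromosome 7, 121943712 to 121950173 in GRCh37, plus strand), beside the gene of a forebrain zinc finger repressor, held 23240 of the reads over all libraries. It averaged 229 ± 7.15 CPM with CBL0137 and 350 ± 6.94 CPM with DMSO (SD, n = 2 each), or -0.61 as log2 fold change (SE 0.05, edgeR adjusted p = 1.59e-13). FEZF1 was not called, with 72.3 and 72.1 CPM with CBL0137 and 71.7 and 71.5 CPM with DMSO. The call of FEZF1-AS1 sits close to the 1.5-fold limit and was lost with library size as the only scaling (-0.45), with upper-quartile factors (-0.55) and without CBL0137 replicate 1 (-0.58).

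GABPB1-AS1, opposite the gene of an ETS-factor partner subunit, had 107 and 113 CPM with CBL0137 and 151 and 149 CPM with DMSO, and its log2 fold change of -0.45 did not pass the fold limit. THAP9-AS1, whose start overlaps that of the transposase-derived gene THAP9, had 69.6 and 68 CPM with CBL0137 and 118 and 108 CPM with DMSO and fell by 0.72. OTUD6B-AS1 (-0.58) and TRHDE-AS1 (0.43) were not called. OTUD6B-AS1 was called with DESeq2 (-0.59) and without CBL0137 replicate 2 (-0.65) or DMSO replicate 1 (-0.67), TRHDE-AS1 with library size alone (0.59) and on log2(FPKM + 1) (0.75), and the call of THAP9-AS1 was lost with library size alone (-0.56) and on log2(FPKM + 1) (-0.53). PENK-AS1 was the member among these 6 that rose.

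Sense partners could be found by symbol for 243 members, all on the opposite strand, and 234 pairs had both genes tested, since 9 partners had too few reads. The other 4 members, HOXB-AS3, HOXC-AS2, HOXD-AS2 and TRD-AS1, are named after a gene cluster. Among the 234 partners, 29 were called higher and 36 lower, with a median log2 fold change of -0.11. The shares over all tested genes were 18.2% higher and 15.1% lower. Over protein-coding genes with 200 reads or more they were 13.8% and 16.7%. Both genes rose in 17 pairs and both fell in 7. Some antisense genes of the 17 met the read limit through the CBL0137 libraries, which favours a higher call. The antisense gene rose beside a partner that was not called in 53 pairs, and fell beside one in 15. Across the 234 pairs, which share the same 4 libraries, the log2 fold changes of antisense and sense had a Pearson r of 0.38 and a Spearman rho of 0.27, given as a description.

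The difference between the partners was tested directly on the antisense/sense ratio, with limma on log2 CPM over 545 pairs. The ratio was higher with CBL0137 in 45 of 234 member pairs and lower in 15 (adjusted p under 0.05 and a ratio changed over 1.5-fold), and the share called over all 545 pairs was 15.6% higher and 3.85% lower. The median difference, antisense minus sense log2 fold change, was 0.30. Entry through the CBL0137 libraries favours a higher ratio too, and of 200 pairs whose antisense gene had at least 100 reads in the DMSO libraries, 31 had a higher ratio and 16 a lower one. These calls depend on few samples and on the set of pairs fitted. Leaving out any 1 library, which leaves 1 sample in a group, lost most or all of them. A replicate block gave 0 calls in limma (67 higher and 24 lower at an unadjusted p under 0.05). No filter on low counts, with all libraries kept and 1236 pairs fitted, also gave 0 calls in limma (60 and 21 unadjusted). The direction of all 60 called pairs was kept in each of these settings. They reuse the libraries that gave the calls, so the kept direction is no separate support. On log2(FPKM + 1) the direction was kept in 57 of the 60.

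**Figure D3:**
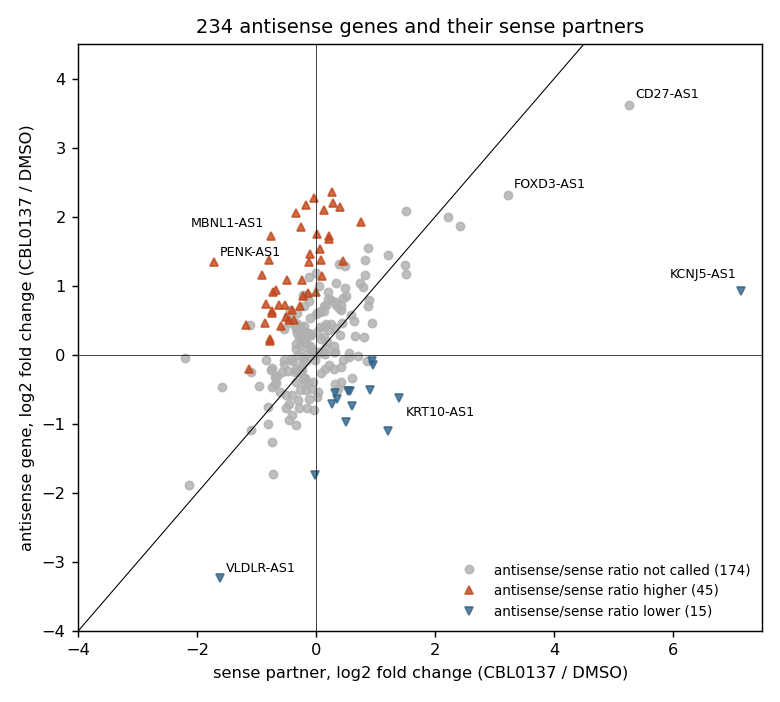
Log2 fold change (CBL0137 over DMSO) of the sense partner (x axis) and of the antisense gene (y axis) for 234 pairs; the diagonal marks equal change, and colours mark pairs whose antisense/sense ratio was called higher (45) or lower (15). Most ratio calls lie above the diagonal, with PENK-AS1 at the upper left and VLDLR-AS1 at the bottom; the far-right position of KCNJ5-AS1 comes from a partner with 0 DMSO reads and is no bound.

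In 13 pairs antisense and sense were called in opposite directions, with the antisense gene higher in 10 and lower in 3. Over all 234 pairs, 36 partners were called lower and 29 higher, and of all members 34.0% rose and 10.5% fell. Whether opposite pairs exceed what these shares alone would give was not tested. The widest opposite pair was PENK-AS1 (ENSG00000254254, chromosome 8, 57358366 to 57469072 in GRCh37, plus strand), opposite the gene for proenkephalin, an opioid peptide precursor. PENK-AS1 had 98.9 and 109 CPM with CBL0137, against 40.2 and 42.2 CPM with DMSO (log2 fold change 1.34, SE 0.07). PENK had 334 and 395 CPM with CBL0137, against 1257 and 1157 CPM with DMSO (log2 fold change -1.73). The groups did not overlap in either gene, and the ratio was higher by 3.06 on the log2 scale (SE 0.19, limma adjusted p = 0.0162). Of the exon bases of PENK-AS1, 86.1% lay in introns of genes on the other strand.

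MBNL1-AS1 lies opposite MBNL1, a regulator of alternative splicing, and had 4.19 and 4.11 CPM with CBL0137 and 1.32 and 1.18 CPM with DMSO (log2 fold change 1.72). MBNL1 had 173 and 179 CPM with CBL0137 and 297 and 303 CPM with DMSO (-0.77). Of the exon bases of MBNL1-AS1, 85.8% lay in introns of genes on the other strand. MAPT-AS1 rose by 1.37 while MAPT, the gene of the microtubule protein tau, fell by 0.80. BTG3-AS1 rose by 1.16 and its antiproliferative partner BTG3 fell by 0.92. RTCA-AS1, whose window is printed above, had 57.4 and 55.8 CPM with CBL0137 and 32.6 and 35.8 CPM with DMSO, while RTCA, an RNA 3′ cyclase gene, had 49.9 and 51.8 CPM with CBL0137 and 95.3 and 88.5 CPM with DMSO. The log2 fold changes in this pair were 0.73 for the antisense gene and -0.85 for RTCA.

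Smaller opposite changes were seen for RAMP2-AS1 (0.94, with -0.68 for the receptor-modifying gene RAMP2), ADNP-AS1 (0.91, with -0.72 for the homeobox gene ADNP) and THUMPD3-AS1 (0.72, with -0.63 for the tRNA methyltransferase gene THUMPD3). ANXA2R-AS1 (0.64, with -0.74 for ANXA2R) and TTC28-AS1 (0.60, with -0.74 for TTC28) were the others. ADNP-AS1 had 81 DMSO reads, MBNL1-AS1 47, MAPT-AS1 95 and BTG3-AS1 60. The entry of each through the CBL0137 libraries also favours a higher call. In the reverse direction, KRT10-AS1 had 15 and 16.9 CPM with CBL0137 and 26.2 and 23.4 CPM with DMSO, a log2 fold change of -0.63. Its partner KRT10, an epidermal keratin gene, had 89.5 and 96.2 CPM with CBL0137 and 34.6 and 35.9 CPM with DMSO, a log2 fold change of 1.40. TRAM2-AS1 fell by 0.74 beside a rise of 0.61 in TRAM2, and TMEM92-AS1 fell by 1.11 beside a rise of 1.20 in TMEM92. Several of these antisense calls lie near the limits: KRT10-AS1 lost its call without CBL0137 replicate 1 (-0.55) or DMSO replicate 1 (-0.57) and with library size alone (-0.47), ANXA2R-AS1 without DMSO replicate 1 (0.56), TTC28-AS1 with no filter on low counts (0.58) and TRAM2-AS1 with library size alone (-0.58). On log2(FPKM + 1), MBNL1-AS1 (0.51), BTG3-AS1 (0.66), RAMP2-AS1 (1.01), TTC28-AS1, KRT10-AS1, TRAM2-AS1 and TMEM92-AS1 were not called.

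**Figure D4:**
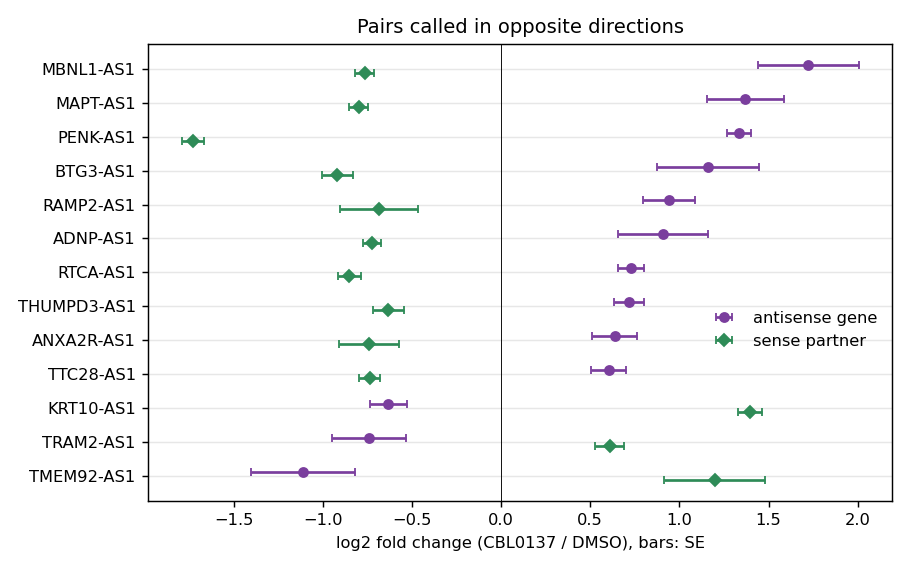
Log2 fold change (CBL0137 over DMSO, x axis, with its SE as bars) of the antisense gene (circles) and its sense partner (diamonds) for the 13 pairs called in opposite directions. In 10 pairs the antisense gene lies right of 0 and its partner left of it, from MBNL1-AS1 at 1.72 to TTC28-AS1 at 0.60, and in 3 pairs the order is reversed.

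Apart from the opposite calls, the 3 pairs with the largest increases of the ratio had partners that were not called. TFAP2A-AS1 (2.05) lies inside the gene of the AP-2 alpha transcription factor, whose log2 fold change was -0.35, and TSHZ3-AS1 and HMGN3-AS1 lie beside partners at -0.17 and -0.04. The ratio was higher by 2.31 for TFAP2A-AS1, 2.30 for TSHZ3-AS1 and 2.24 for HMGN3-AS1. TFAP2A-AS1 and HMGN3-AS1 had 34 and 56 DMSO reads, so their entry through the CBL0137 libraries favours a higher ratio. KCNJ5-AS1 had 9.15 and 7.27 CPM with CBL0137 and 3.70 and 4.996 CPM with DMSO (log2 fold change 0.92). KCNJ5, a potassium channel gene, had 22 and 16 reads with CBL0137 and 0 reads in both DMSO libraries, at least 10.8-fold higher against a floor of 3 reads over the group. The ratio was lower, although both genes were called higher, and KCNJ5-AS1 was not called on log2(FPKM + 1) (0.57). Of the exon bases of KCNJ5-AS1, 100% lay in introns of genes on the other strand. The share was 74.1% for TFAP2A-AS1, 24.0% for HMGN3-AS1 and 6.61% for TSHZ3-AS1. What reads from unspliced sense transcripts contribute to these values was not tested.

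Pairs that moved together included genes of transcription factors. FOXD3, a neural crest and pluripotency factor, had 4.41 and 4.16 CPM with CBL0137 and 0.476 and 0.43 CPM with DMSO, and its log2 fold change of 3.22 stood beside 2.31 for FOXD3-AS1. The ratio in this pair was not called. GATA2-AS1 had 36 and 31.3 CPM with CBL0137 and 14.2 and 13.1 CPM with DMSO (1.30), and the haematopoietic factor gene GATA2 108 and 102 CPM with CBL0137 and 36.9 and 37.7 CPM with DMSO (1.49). Both genes also rose in the ATXN1, MAFA, SLC9A3, MELTF, ALOX12, TNS2, CCDC183, TNK2, KIF9, ASB16, ZNF436, ASMTL and MAP3K14 pairs. The antisense genes of the ATXN1, MAFA, ALOX12, TNK2 and KIF9 pairs had 44, 38, 53, 56 and 59 DMSO reads, and FOXD3-AS1 had 98. Entry of these through the CBL0137 libraries favours a higher call. In the MAP3K14 pair the ratio was called higher, by 1.18. Both fell for VLDLR, SLC7A11, ZBED3, RGMB, FLRT2 and TSPEAR, the last of which is opposed by 2 members.

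Members were also grouped by what the partner is known to do, in lists drawn up by hand with these results known, so their counts are descriptions and can follow from the choice; over all members 34.0% rose and 10.5% fell. Of the 9 members opposite genes of chromatin proteins, 8 rose and 1 fell, while 0 of the 9 partners were called, and the ratio was higher in 5 and lower in 1. Of the 8 that rose, 2 (HMGN3-AS1 and H1-10-AS1) had fewer than 100 DMSO reads. H1-10-AS1, opposite a linker histone gene, had 5.05 and 4.47 CPM with CBL0137 and 1.32 and 1.50 CPM with DMSO (log2 fold change 1.75), and H1-10 had a log2 fold change of 0.01. BRPF3-AS1 (1.46), SPEN-AS1 (1.35), KDM4A-AS1 (0.87), SAP30L-AS1 (0.81), ASH1L-AS1 (0.79) and PCGF3-AS1 (0.64) lie beside genes of a histone acetylation scaffold, a transcriptional repressor, a histone demethylase, a deacetylase complex component, a histone methyltransferase and a Polycomb protein. HMGN3-AS1 was the eighth that rose and L3MBTL2-AS1 the member that fell.

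Of 24 members opposite genes of RNA processing and translation, from the same hand-drawn lists, 12 rose (50%) and 1 fell (4.17%). Over all members 34.0% rose and 10.5% fell. Of the partners 0 rose and 4 fell, against 29 and 36 of all 234 tested partners. The ratio was higher in 9 and lower in 0, against 45 and 15 over all 234 pairs. Of these members 5 had fewer than 100 DMSO reads, and 4 of them were among those that rose. Beside those named above, RALY-AS1 (1.08), NOP14-AS1 (1.08) and PNISR-AS1 (0.91) rose next to partners at -0.25, -0.50 and -0.01. DICER1-AS1, opposite the gene of the microRNA-processing enzyme, rose by 0.86, and DICER1 had a log2 fold change of -0.15. WARS2-AS1, opposite a mitochondrial tRNA synthetase gene, was the one that fell, by 0.78.

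Among 44 members opposite transcription factor genes, 14 rose (31.8%) and 3 fell (6.82%), and of 42 tested partners 7 rose and 5 fell. Over all members 34.0% rose and 10.5% fell, and of all 234 tested partners 29 rose and 36 fell. These groups too come from the lists drawn up with the results known. SREBF2-AS1, opposite the gene of a regulator of cholesterol synthesis, rose by 0.72 with SREBF2 at -0.53, and the ratio was called. OTX2-AS1 and NR2F1-AS1, both opposite genes of developmental regulators, each fell by 0.65. For transport and channel genes 5 of 12 members rose and 1 fell, and for genome maintenance and cell cycle genes 2 of 10 rose and 0 fell. The remaining 148 members had 43 higher and 20 lower.

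HOX cluster members were HOXC-AS2, HOXB-AS3 and HOXD-AS2. HOXC-AS2 had 3.82 and 3.79 CPM with CBL0137 and 0.952 and 2.20 CPM with DMSO (log2 fold change 1.27), and HOXB-AS3 had 12.1 and 11.6 CPM with CBL0137 and 6.34 and 7.74 CPM with DMSO (0.75). HOXC-AS2 had 59 DMSO reads, and its entry through the CBL0137 libraries favours a higher call. Of its exon bases, 92.6% lay in introns of genes on the other strand. HOXD-AS2 had a log2 fold change of 0.39 and was not called. Of 30 antisense RNAs with published work in cancer or development, or with a partner known in Ewing sarcoma, 17 were members, of which 3 rose and 2 fell. Over all members 34.0% rose and 10.5% fell. FOXD3-AS1, GATA2-AS1 and ZEB1-AS1 (0.65) rose, and DLGAP1-AS1 (-0.95) and DLGAP1-AS2 (-0.72) fell. ZEB1-AS1 lost its call without DMSO replicate 2 (0.43) and with DESeq2 (0.64), and both DLGAP1 members lost theirs without CBL0137 replicate 1 (-0.66 and -0.62). CDKN2B-AS1, also called ANRIL, PSMA3-AS1 and FGD5-AS1 had log2 fold changes of -0.10, -0.09 and -0.11, and TTN-AS1 one of 0.09. NKX2-2-AS1, opposite a target gene of the Ewing sarcoma fusion, had no read.

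The arrangement of each pair in GRCh37 was read from GENCODE. Over all members 34.0% rose and 10.5% fell. The starts of antisense and sense gene overlapped in 108 pairs. Here 43 antisense genes rose (39.8%) and 11 fell (10.2%), with a median log2 fold change of 0.37. In 46 pairs the antisense gene lay within the sense gene's span, and 11 rose (23.9%) and 10 fell (21.7%, median 0.21). Overlap at the ends was found in 48 pairs, with 15 higher and 3 lower (0.09), and the sense gene lay within the antisense span in 21, with 8 higher and 0 lower (0.14). Divergent pairs without overlap numbered 16, with 4 higher and 0 lower (0.20), and convergent pairs 4, with 1 higher and 2 lower (-0.51). The difference between arrangements was not tested.

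The median distance between starts was 278 bases. Of 156 pairs with starts within 1000 bases, 54 antisense genes rose (34.6%) and 14 fell (8.97%). Their ratio was higher in 34 and lower in 7. Of 87 pairs with starts farther apart, 28 antisense genes rose (32.2%) and 12 fell (13.8%). Here the ratio was higher in 11 and lower in 8. Over all members 34.0% rose and 10.5% fell, and the difference by distance was not tested. In the 18 pairs with a shared RefSeq window, 5 antisense genes rose and 1 fell, and 2 sense genes rose and 3 fell. Both moved in the same direction in 1 of these pairs, FOXD3.

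Among the printed windows, SBNO1-AS1 and RTCA-AS1 rose as given above, and TPT1-AS1, opposite the gene of a translationally controlled tumour protein, had 40.6 and 43.2 CPM with CBL0137 and 32.04 and 30.7 CPM with DMSO (log2 fold change 0.42, not called) while TPT1 fell by 0.60. TRIM52-AS1 had 4.73 and 5.24 CPM with CBL0137 and 8.41 and 5.86 CPM with DMSO (-0.52, not called) beside a rise of 0.90 in TRIM52. ZBED5-AS1 had 2.59 and 2.85 CPM with CBL0137 and 6.40 and 4.30 CPM with DMSO and fell by 0.97, with ZBED5 at 0.50. The antisense/sense ratio was higher for SBNO1-AS1, RTCA-AS1 and TPT1-AS1 and lower for TRIM52-AS1 and ZBED5-AS1. Starts less than 200 bases apart in RefSeq were thus found beside ratio calls in both directions.

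**Figure D5:**
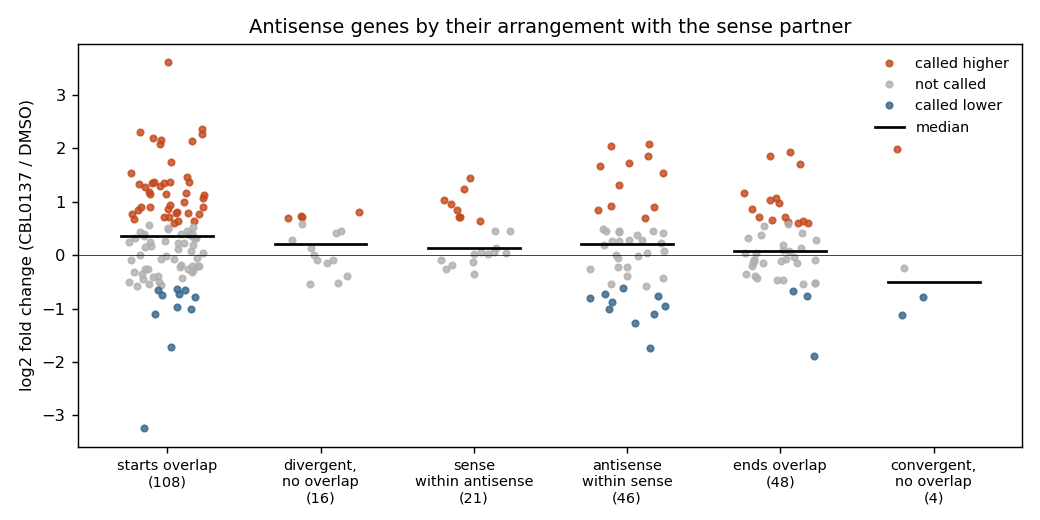
Log2 fold change (CBL0137 over DMSO, y axis) of each antisense gene by its arrangement with the sense partner in GRCh37; points are genes, coloured by call, black lines are medians, and the number of genes is under each group. Medians run from 0.37 where starts overlap to -0.51 in the 4 convergent pairs, and calls in both directions occur where the antisense gene lies within the sense gene (11 higher and 10 lower).

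Overlap with the other strand was set beside the calls, since strand is not known. Over all members 34.0% rose and 10.5% fell. Of 38 members with 0% of their exon bases in opposite introns, 10 rose (26.3%) and 3 fell (7.89%, median log2 fold change 0.04). Of 112 with some but under 50% of them there, 44 rose (39.3%) and 10 fell (8.93%, median 0.38). Of 97 with 50% or more, 30 rose (30.9%) and 13 fell (13.4%, median 0.20). Among 44 members with no exon base in an opposite exon, 10 rose and 5 fell. Among 14 with no exon base anywhere in the span of an opposite gene, 3 rose and 2 fell, with a median log2 fold change of 0.06. The share of reads in no annotated gene was also higher with CBL0137, and what intronic or unspliced reads contribute to the higher calls was not tested.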

How the data were processed

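RNA-seq of SKNMC cells given CBL0137 or DMSO was analysed, with 2 libraries per group named in the sample titles. The authors deposited, for each gene and library, a raw read count and an FPKM. Per the series' design text, they trimmed with Trim Galore, aligned to hg19 with HISAT2, counted with HTSeq 0.11.1, used DESeq2 1.26.0, and computed the deposited FPKM from reads, gene length and depth. The submitters' processing notes also list mm10. Annotation release and strand setting: not given in the sources used here. FPKM as deposited are not rescaled counts: 5103 genes with 0 counts had an FPKM above 0.

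Symbols and positions came from GENCODE release 44 lifted to GRCh37 (58524 of 60617 genes), and 6 further lines without a gene were left out. These held the reads in no gene, in overlapping genes (8.75% and 8.78% of counted reads with CBL0137, 9.34% and 9.27% with DMSO) and the like. Counts were tested with edgeR 4.0.16 in R 4.3.3 (quasi-likelihood, TMM factors of 1.06 and 1.05 for CBL0137 and 0.943 and 0.950 for DMSO, filterByExpr). A call needs a Benjamini-Hochberg adjusted p under 0.05 and a fold above 1.5. SE was taken as |log2 fold change| over the root of the F statistic. Antisense/sense ratios were tested with limma 3.58.1 on log2 CPM (prior count 2). Replicates differed by more than sampling noise (chi-square per degree of freedom 2.68 for CBL0137 and 2.95 for DMSO). Both tests were tested on simulated data.

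The members, lists and rules were chosen with earlier results of these data known. Named members were the 8 highest and 8 lowest called, the 6 of highest mean CPM, the 5 highest and 5 lowest called ratios, pairs called oppositely, a list of 30 antisense RNAs and the 3 genes on each side of the read limit, 52 members in all; the values of some of these and of some markers are not reported here. Other genes named were chosen after their values were seen, as were the partner roles. Alternatives were other size factors, DESeq2 1.42.0, no filter on low counts, log2(FPKM + 1), other read and fold limits, a replicate block, members without overlap, and each library left out.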

Additional observations from a re-analysis of the deposited data

How the results depend on the processing

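The count of higher calls exceeded that of lower calls under every alternative run. Higher and lower members numbered 100 and 18 with library size alone, 89 and 22 with upper-quartile factors, 76 and 28 with DESeq2, 72 and 28 with no filter, 50 and 10 with log2(FPKM + 1), and 43 and 9 at a fold above 2, while 49 were lower with no fold limit. With 100 reads or more 129 were higher, with 400 or more 47 were higher and 17 lower, with 100 DMSO reads or more (210 genes) 52 and 30, with no base in an opposite exon 10 and 5, and with none in an opposite span, an alternative chosen after seeing the data, 3 and 2. Leaving out each library gave 78 to 85 higher and 23 to 31 lower. Calls over all genes numbered 5798, against 3179 with FPKM, 10722 with no fold limit, 3206 at a fold above 2 and 5117 to 5549 without 1 library. The median log2 fold change of 0.26 became 0.33 with upper-quartile factors, 0.42 with library size alone, 0.32 with 100 reads or more, 0.058 with 100 DMSO reads or more, 0.063 without opposite spans, and 0.22 to 0.32 without 1 library. Ratio calls (45 higher, 15 lower) numbered 0 and 0 in limma with no filter (60 and 21 at an unadjusted p under 0.05), 0 and 0 with the replicate block (67 and 24 unadjusted), 26 higher with 400 reads or more, and 0 to 11 higher and 0 to 3 lower without 1 library (44 and 15 unadjusted without CBL0137 replicate 1, 44 and 12 without CBL0137 replicate 2). Deviations of the first replicates from their group means had a correlation of 0.02 between the groups. With so few libraries this cannot tell whether replicate numbers pair the samples, and the causes were not tested. Of 572 alternative values for named members, 516 kept direction and call, 37 lost the call, 14 gained it and 5 turned round: PSMA3-AS1 0.068, CDKN2B-AS1 0.063 and FGD5-AS1 0.048 with library size alone, and TTN-AS1, which ran between -0.15 and 0.35 without 1 library.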
